A study of Mus musculus with 12 samples.

Results

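The 36 genes described here belong to the ATF4 and amino acid response of mouse cells: 11 regulators and effectors of the stress response, 8 enzymes of amino acid synthesis, 3 enzymes of mitochondrial one-carbon metabolism, 5 amino acid transporters and transporter subunits, and 9 cytosolic tRNA synthetases. They are set by a list of gene names, drawn up with earlier results of these data known, and all 36 were found among the 41457 genes of each deposited table, 35 by exact name and Ddit3 by its gene ID. Poly(A) RNA was sequenced from CD4+ T cells of C57BL/6 mice, taken from spleen and lymph nodes and driven in culture toward 3 kinds of helper cell. The 12 libraries covered Th1, Th2 and Th17 cultures of NFATc1/ΔS mice, in which the transcription factor NFATc1 lacks its SUMO attachment sites, and of wild-type (WT) mice, each collected at day 3.5 and day 2.5. There was 1 library for each combination. All cultures received anti-CD28 at 1 µg/ml and medium with 5% serum. Th1 cultures had IL-12 at 10 ng/ml with an antibody against IL-4. Th2 cultures had IL-4 at 50 ng/ml with an antibody against IFN-γ, and both kinds had anti-CD3 at 0.5 µg/ml in RPMI. Th17 cultures had TGFβ at 0.5 ng/ml and IL-6 at 20 ng/ml with both antibodies, anti-CD3 at 0.25 µg/ml, and IMDM as the medium. Medium and anti-CD3 dose therefore cannot be told apart from culture in any comparison with Th17. The labels name no age, sex or number of mice and do not tell if each library had its own animal or culture, so p values measure only the spread between these libraries.

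ATF4 is a transcription factor whose translation goes up when the initiation factor eIF2 is phosphorylated, which happens when amino acids run short, when the endoplasmic reticulum is stressed or when other kinases of this pathway are active. It pairs with C/EBP proteins on composite elements in its target genes and raises the enzymes, transporters and tRNA synthetases with which a cell makes, imports and charges amino acids. Activated T cells use these genes to grow, and serine and one-carbon metabolism feeds their nucleotide synthesis. Because ATF4 is controlled largely at translation, its mRNA level is not a measure of its activity.

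The composite element recognised by C/EBP and ATF factors was searched as TGATGNAA on both strands of the RefSeq promoter table (GRCm38.p6), which covers 250 bases before to 50 bases after each start site. Of the 36 genes, 30 had an entry and 12 of these (40%) held the motif, against 4.51% of the 27025 genes in the table. The genes were listed as members of the ATF4 response, so this share is not a result of the expression data. The 10 promoters that hold a match before the start site are shown. Each line gives 60 bases of the gene's own strand, read 5′ to 3′, with the motif in capitals.
Asns (chr6:7693199-7693258, minus strand): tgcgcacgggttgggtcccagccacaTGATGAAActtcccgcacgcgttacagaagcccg
Pycr1 (chr11:120643818-120643877, minus strand): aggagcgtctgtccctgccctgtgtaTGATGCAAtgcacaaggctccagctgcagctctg
Atf3 (chr1:191183410-191183469, minus strand): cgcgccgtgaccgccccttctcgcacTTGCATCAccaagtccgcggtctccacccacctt
Nupr1 (chr7:126625547-126625606, minus strand): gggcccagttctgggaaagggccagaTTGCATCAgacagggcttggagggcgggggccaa
Chac1 (chr2:119351023-119351082, plus strand): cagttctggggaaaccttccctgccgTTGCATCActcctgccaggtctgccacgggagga
Vldlr (chr19:27216794-27216853, plus strand): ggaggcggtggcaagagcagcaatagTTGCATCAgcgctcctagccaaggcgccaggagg
Slc7a11 (chr3:50443646-50443705, minus strand): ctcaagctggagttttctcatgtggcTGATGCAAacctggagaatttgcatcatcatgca
Gars (chr6:55037945-55038004, plus strand): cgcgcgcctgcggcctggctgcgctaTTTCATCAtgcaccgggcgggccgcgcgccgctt
Aars (chr8:111033704-111033763, plus strand): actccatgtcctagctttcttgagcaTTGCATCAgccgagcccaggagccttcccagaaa
Tars (chr15:11399640-11399699, minus strand): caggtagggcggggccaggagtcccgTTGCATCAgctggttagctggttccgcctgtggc
The motif began 23 bases before the start site in Asns and 103 bases before it in Pycr1. It began 110 bases before the start in both Atf3 and Nupr1, 193 in Chac1, 200 in Vldlr, 30 in Gars and 15 in Tars. Slc7a11 held it at 66 bases before the start and again, on the other strand, at 47 bases. That second match lies inside the same window and is printed in lower case. Aars held it at 112 bases before the start and again at position 10 after it. In Trib3 and Iars it lay at positions 15 and 8 after the start site, and those 2 windows are not printed. Asns and Pycr1 read TGATGAAA and TGATGCAA on their own strand, whereas in Atf3, Nupr1, Chac1, Vldlr, Aars and Tars the match lay on the opposite strand and reads TTGCATCA. A match describes these letters in this window and does not show that a factor binds there. Cth, Aldh1l2 and Slc7a5 were among the 6 genes without an entry, whose promoters were not searched. Psat1, Phgdh, Psph and the other genes not named in this paragraph had no such match or no entry.

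Reads on genes came to between 13417121 and 17774400 per library. The lineage markers followed the labels: summed over the list, Th1 markers came to 420 to 545 CPM (counts in every 1000000) in Th1 libraries and 42.2 to 186 elsewhere, Th2 markers to 716 to 1220 in Th2 and at most 121 elsewhere, and Th17 markers to 84.5 to 180 in Th17 and at most 16 elsewhere. T cell markers stood at 1100 to 1530 CPM throughout, markers of CD8 T and NK cells at 17.7 to 47.7 CPM and of myeloid cells at 3.34 to 17.6 CPM. The Th1 libraries of day 2.5 were unlike those of day 3.5. Across genes the pair of Th1 libraries of day 3.5 correlated at 0.994, but the NFATc1/ΔS library of Th1 day 2.5 correlated with them at 0.936 and 0.94 and the WT library of Th1 day 2.5 at 0.964 and 0.962. The WT library of Th1 day 2.5 was nearer to the Th17 libraries, at 0.969 to 0.982. Genotype and day effects were therefore fitted on the 8 Th2 and Th17 libraries, and again with the Th1 libraries. In such bulk RNA, fewer cells of a type and less RNA per cell cannot be told apart.

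Per kilobase of exon, Ddit4, an inhibitor of the growth kinase complex mTORC1 also known as REDD1, was the most abundant member, with a median of 245 exon reads per kb and 1000000 gene reads over the 12 libraries. Nars (84.4), Atf4 itself (77.5), Gars (76.6), Sars (75.3) and the serine synthesis enzymes Phgdh (74.4) and Psat1 (66.3) followed on the same scale. Only 39.0% of the Phgdh reads mapped uniquely, so its rank depends on reads that fit more than 1 place. Asns, which makes asparagine, had a median of 21.9 and Ddit3, which encodes the stress factor CHOP, 15.8. At the low end stood the arginine and lysine transporter gene Slc7a3 (0.912), the stress protein gene Nupr1 (0.472), Aldh1l2 (0.434) and Slc7a11, the cystine transporter gene (0.0462). The low members rest on few reads: Slc7a11 had 135 reads in all 12 libraries together, Nupr1 276 and Aldh1l2 611. The map of levels by library shows 2 features described below, the blocks set by culture in the regulators and the NFATc1/ΔS library of Th1 day 2.5.

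**Figure D1:**
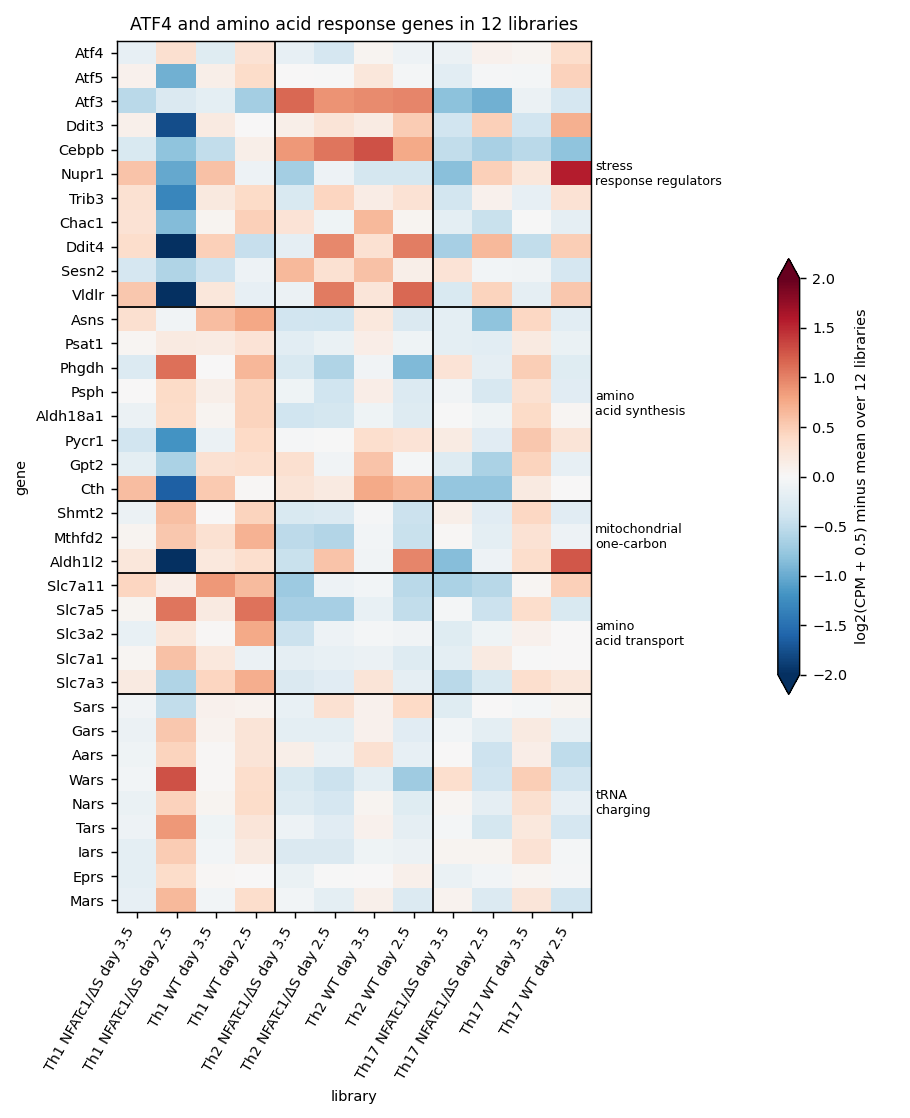
Level of each of the 36 genes (rows, grouped by role) in each of the 12 libraries (columns), as log2(CPM + 0.5) minus the gene's mean over the libraries, so red is above and blue below that mean. Atf3 and Cebpb are red in the 4 Th2 libraries, and the NFATc1/ΔS library of Th1 day 2.5 is dark blue for Ddit3, Ddit4, Vldlr and Aldh1l2.

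In the Th2 and Th17 cultures, 5 of the 36 genes were lower in NFATc1/ΔS than in WT cells and none was higher (quasi-likelihood test of edgeR, p values adjusted after Benjamini and Hochberg, threshold 0.05, pairs of the same culture and day as blocks). Over all 13086 genes tested, 1.28% were lower and 0.68% higher. The 5 were Asns; Pycr1, the last enzyme of proline synthesis; Cth, which makes cysteine from cystathionine; Aldh1l2, a mitochondrial enzyme that consumes formyl-tetrahydrofolate; and Slc7a5, the light chain of the LAT1 transporter for leucine and other large amino acids. The median log2 fold change of the 36 was -0.20, against 0.00 over all genes tested, and 3 of the 36 had a positive value.

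Asns (ENSMUSG00000029752, chromosome 6, 7675169 to 7693254 on GRCm38) had 51.5 and 50.9 CPM in the NFATc1/ΔS libraries of Th2 day 3.5 and day 2.5, against 78.2 and 55.1 CPM in their WT partners. In Th17 it had 58.5 and 38.4 CPM in NFATc1/ΔS, against 90.1 and 58.1 CPM in WT. The NFATc1/ΔS value lay below its partner in each of the 4 pairs, by the least in Th2 at day 2.5. Its log2 fold change was -0.49 ± 0.08 (standard error, 4 pairs, edgeR adjusted p = 0.0103), and -0.44 (edgeR adjusted p = 0.0534) without the Th17 pair of day 3.5.

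Cth (ENSMUSG00000028179, chromosome 3, 157894248 to 157925077) had 10.6 and 10 CPM in NFATc1/ΔS Th2 cells of day 3.5 and day 2.5, against 15.2 and 14.2 CPM in WT. In Th17 it had 4.91 and 4.93 CPM in NFATc1/ΔS, against 10 and 8.84 CPM in WT. The genotypes did not overlap within either culture, and the log2 fold change of -0.71 ± 0.12 (edgeR adjusted p = 0.0068) kept passing without each pair in turn. Aldh1l2 (ENSMUSG00000020256, chromosome 10, 83487450 to 83534140) had 2.02 and 4.59 CPM in NFATc1/ΔS Th2 cells, against 2.74 and 6.19 CPM in WT, and 1.39 and 2.69 CPM in NFATc1/ΔS Th17 cells, against 3.86 and 7.56 CPM in WT. It was the lowest of the 5 in level and the largest in fold, at -0.95 ± 0.22 (edgeR adjusted p = 0.0398), and it no longer passed without the Th17 pair of day 2.5 (-0.74, edgeR adjusted p = 0.16) or of day 3.5 (-0.80, edgeR adjusted p = 0.153). Aldh1l2 overlaps D10Wsu102e on the opposite strand, which had 17019 reads in all libraries, and the sources used here do not say that counting used strand.

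Pycr1 (ENSMUSG00000025140, chromosome 11, 120635712 to 120643769) had 12.9 and 13 CPM in NFATc1/ΔS Th2 cells, against 16.6 and 16 CPM in WT, and 14.8 and 11.1 CPM in NFATc1/ΔS Th17 cells, against 19.3 and 15.8 CPM in WT. Its fold was small but similar in each pair, at -0.39 ± 0.09 on the log2 scale (edgeR adjusted p = 0.0423), and with any 1 pair left out it did not pass (edgeR adjusted p between 0.0895 and 0.153). Slc7a5 (ENSMUSG00000040010, chromosome 8, 121881150 to 121907694) had 133 CPM in both NFATc1/ΔS Th2 libraries, against 192 and 151 CPM in WT, and 207 and 158 CPM in NFATc1/ΔS Th17 cells, against 270 and 172 CPM in WT. The difference was larger at day 3.5 in both cultures. Its log2 fold change was -0.30 ± 0.07 (edgeR adjusted p = 0.0427), and it did not pass without the Th2 pair of day 2.5 (edgeR adjusted p = 0.09), of Th2 day 3.5 (0.162) or of Th17 day 3.5 (0.177). Of its reads 17.1% mapped uniquely, Gm20388 overlaps it on the opposite strand, and with unique reads alone it passed at -0.34 (edgeR adjusted p = 0.0183). A fit that ignores the pairs, in which differences between cultures and days enter the spread, called none of the 5. DESeq2 called 3 of the 5, Asns, Cth and Slc7a5, and did not call Aldh1l2 or Pycr1. Lineage genes moved in the same 4 pairs: 3 of the 5 Th17 markers, Il17a and Il17f among them, were lower in NFATc1/ΔS, as were 2 of the 4 Th2 markers, Il5 and Il13. Of the 4 Th1 markers 1 was lower, Il12rb2 at -0.54 ± 0.07 (edgeR adjusted p = 0.000431), and of the 5 B cell markers tested 1, Ebf1. Their part in the result was not tested.

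**Figure D2:**
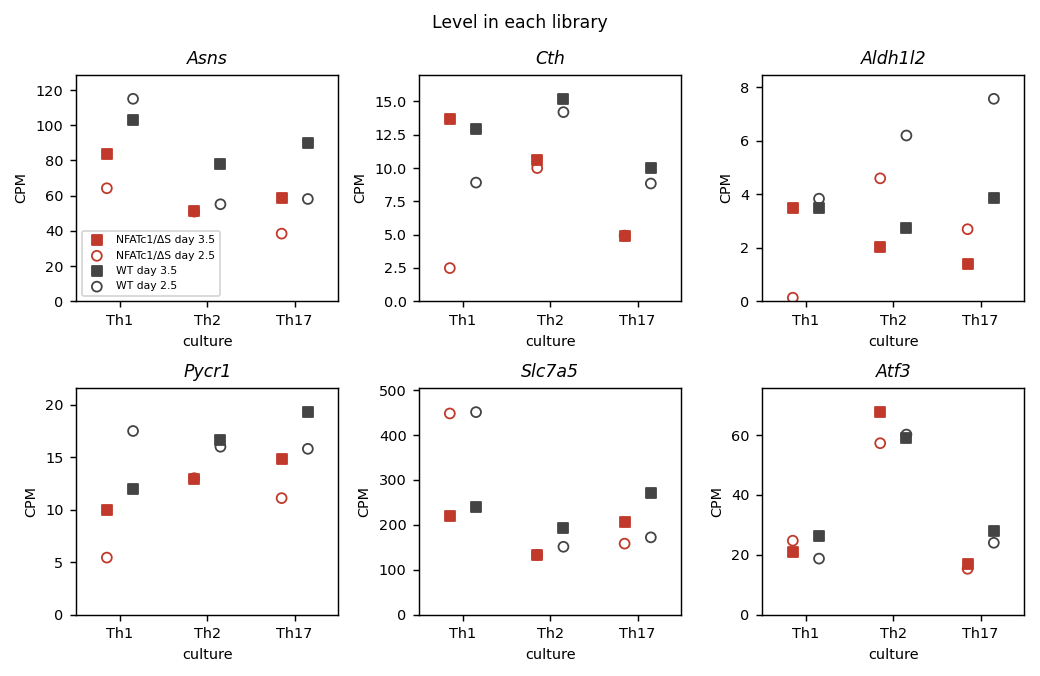
CPM of 6 genes in each of the 12 libraries, by culture, with NFATc1/ΔS in red to the left of WT in grey; squares are day 3.5 and open circles day 2.5, each symbol is 1 library, and every axis starts at 0. In Th2 and Th17, the red symbols of Asns, Cth, Aldh1l2, Pycr1 and Slc7a5 lie below the grey symbols of the same day, while Atf3 does so in Th17.

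By role, 0 of the 11 regulators, 3 of the 8 synthesis enzymes, 1 of the 3 one-carbon enzymes, 1 of the 5 transport genes and 0 of the 9 tRNA synthetases passed in these 4 pairs, all lower. Their median log2 fold changes were -0.18, -0.30, -0.24, -0.30 and -0.13 in that order. Atf4 mRNA had 166 and 148 CPM in NFATc1/ΔS Th2 cells of day 3.5 and day 2.5, against 193 and 173 CPM in WT, and 172 and 198 CPM in NFATc1/ΔS Th17 cells, against 193 and 239 CPM in WT. Its value of -0.22 ± 0.06 did not pass (edgeR adjusted p = 0.0675). Atf4 passed with unique reads alone (-0.22, edgeR adjusted p = 0.0491) and with no read filter (edgeR adjusted p = 0.0457). Of the other genes followed in every comparison, the serine aminotransferase gene Psat1 had -0.21 ± 0.07 and Slc3a2, the heavy chain that carries LAT1 to the membrane, also -0.21 ± 0.07. The stress pseudokinase gene Trib3 had -0.18 ± 0.10 and the glutathione-degrading enzyme gene Chac1 -0.28 ± 0.15. Ddit3 had -0.13 ± 0.07 and Phgdh, the first enzyme of serine synthesis, -0.03 ± 0.08. Slc7a11 had -1.02 ± 0.49 with 3 to 16 reads in each of these libraries. None of these passed, with edgeR adjusted p between 0.151 and 0.922 for those after Atf4. The members not named in this paragraph or among the 5 lay between -0.86 (Nupr1) and 0.22 (Sesn2).

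Counted by direction alone, 20 of the 36 genes (55.6%) were lower in NFATc1/ΔS in every one of the 4 Th2 and Th17 pairs, against 11.7% of the 12797 genes past a common read filter, and 1 of the 36, Sesn2, was higher in every one. Over the 3 pairs of day 3.5, Th1 included, 27 of the 36 (75%) were lower in each, against 18.9% of genes. Over all 6 pairs 12 of the 36 (33.3%) were lower in each, against 2.62% of genes: Ddit3, Asns, Psat1, Psph, Aldh18a1, Pycr1, Gpt2, Mthfd2, Slc7a5, Slc3a2, Slc7a3 and Sars. Of these, Psph completes serine synthesis, Aldh18a1 starts proline synthesis, Gpt2 exchanges amino groups between alanine and glutamate in mitochondria, and Mthfd2 is a folate enzyme of mitochondria. Psph, with 8644 reads in all libraries, overlaps Cct6a on the opposite strand, which had 46570. The 36 genes are not independent of each other, and these shares carry no test.

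**Figure D3:**
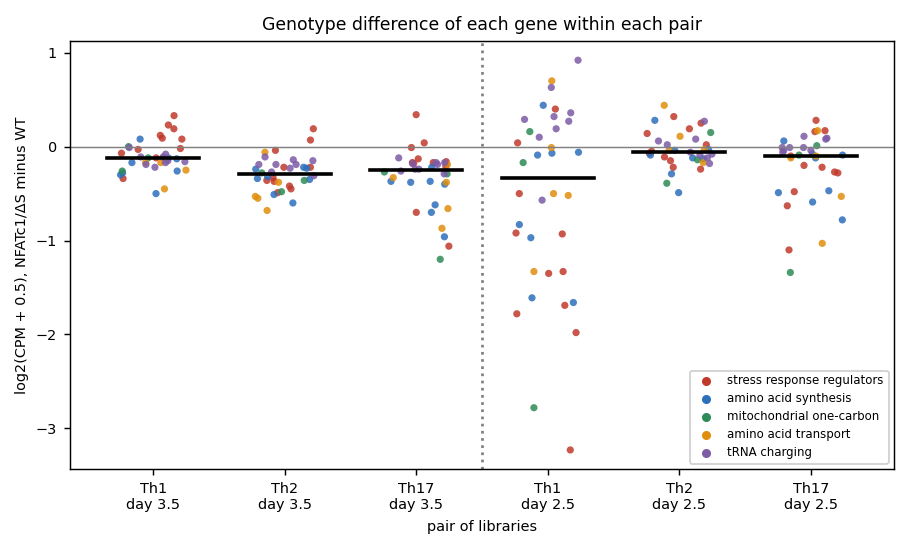
Difference in log2(CPM + 0.5), NFATc1/ΔS minus WT, of each of the 36 genes (points, coloured by role) within each of the 6 pairs of libraries; black bars are medians over the genes. The medians are -0.12, -0.30 and -0.25 in the day 3.5 pairs and -0.34, -0.06 and -0.10 in the day 2.5 pairs of Th1, Th2 and Th17, and the Th1 pair of day 2.5 is the most spread.

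The genotype difference was then read at each day, a comparison added after the pair values had been seen. At day 3.5, over the 3 pairs of Th1, Th2 and Th17, 35 of the 36 genes had a negative log2 fold change, with a median of -0.23 against 0.00 over all genes. The exception was Sesn2, which encodes a leucine sensor that restrains mTORC1. None of the 36 passed by edgeR, 22 had an unadjusted p under 0.05 and DESeq2 called 7. Over all 13171 genes edgeR called 0.00759%, which is 1 gene, 1593 had an unadjusted p under 0.05 and DESeq2 called 49, or 2.53% of those to which it gave an adjusted p. The 3 of smallest unadjusted p, which did not pass, were Asns at -0.50 ± 0.08 (edgeR adjusted p = 0.0865), Mthfd2 at -0.33 ± 0.07 (edgeR adjusted p = 0.167) and Gpt2 at -0.49 ± 0.11 (edgeR adjusted p = 0.2). Psat1 had -0.28 ± 0.07, Phgdh -0.24 ± 0.06, Slc7a5 -0.34 ± 0.08 and Slc3a2 -0.29 ± 0.06. Atf4 had -0.09 ± 0.07, Ddit3 -0.04 ± 0.08, Trib3 -0.17 ± 0.12 and Chac1 -0.12 ± 0.18. Slc7a11 had -1.02 ± 0.42. Without the Th1 pair, 3.98% of all genes passed (507), and 11 of the 36, all lower: Ddit4, Asns, Psat1, Aldh18a1, Gpt2, Cth, Shmt2, Mthfd2, Slc7a5, Slc3a2 and Nars.

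At day 2.5, in Th2 and Th17, the median over the 36 was -0.10, with 9 positive values. None passed by edgeR, against 1.47% of all genes, and DESeq2 called 0. An unadjusted p under 0.05 was found for 8 of the 36, against 1609 of all 13086 genes. The 3 of smallest unadjusted p were Cth at -0.65 ± 0.17 (edgeR adjusted p = 0.0702), Atf4 at -0.25 ± 0.07 (edgeR adjusted p = 0.121) and Asns at -0.35 ± 0.10 (edgeR adjusted p = 0.132). Phgdh had 0.17 ± 0.08 and Psat1 -0.06 ± 0.07, Ddit3 -0.23 ± 0.09, Trib3 -0.03 ± 0.12 and Chac1 -0.24 ± 0.23. Of the transport genes, Slc7a5 had -0.15 ± 0.08, Slc3a2 -0.07 ± 0.07 and Slc7a11 -0.62 ± 0.68. Single libraries decide these calls, and the share of all genes moved too. Without the NFATc1/ΔS library of Th17 day 3.5, 3 members (Asns, Cth and Aldh1l2) passed, with 3.92% of all genes. Without any other 1 library of day 3.5, 2 of those 3 passed, with 3.31% to 3.58% of all genes. Leaving out a library of day 2.5 leaves 1 pair of that day. Over all alternatives the log2 fold change of Asns lay between -0.59 and -0.11.

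The change of the genotype difference between the days was tested in the same 8 libraries. Its median over the 36 was -0.25, with 5 positive values, but no member passed by edgeR, against 0.275% of all genes. DESeq2 called 0, and 15 had an unadjusted p under 0.05, against 1369 of all 13086 genes. The members of smallest unadjusted p were Phgdh at -0.40 ± 0.11 (edgeR adjusted p = 0.169), Shmt2, the mitochondrial enzyme that splits serine, at -0.37 ± 0.11 (edgeR adjusted p = 0.189) and Ddit4 at -0.39 ± 0.13 (edgeR adjusted p = 0.252). Psat1 had -0.30 ± 0.11, Slc7a5 -0.31 ± 0.11, Slc3a2 -0.29 ± 0.11 and Asns -0.26 ± 0.14. Phgdh itself had 165 CPM in NFATc1/ΔS Th2 cells at day 3.5 and 135 at day 2.5, against 195 and 111 CPM in WT. In Th17 it had 247 and 181 CPM in NFATc1/ΔS, against 288 and 173 CPM in WT. In both cultures the NFATc1/ΔS libraries lay below WT at day 3.5 and above WT at day 2.5. The order was the same with unique reads alone, which are 39.0% of the Phgdh reads. Trib3 (-0.31 ± 0.17), Slc7a11 (-0.86 ± 1.01), Chac1 (-0.07 ± 0.31), Atf4 (0.05 ± 0.10) and Ddit3 (0.21 ± 0.13) did not pass either.

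Within Th17, 5 of the 36 genes were lower in NFATc1/ΔS (2 pairs, spread shared with Th2) and none was higher, against 1.02% lower and 0.703% higher of all genes. They were Asns at -0.61 ± 0.11 (edgeR adjusted p = 0.0125), Cth at -0.94 ± 0.16 (edgeR adjusted p = 0.00872), Aldh1l2 at -1.48 ± 0.24 (edgeR adjusted p = 0.00532), Gpt2 at -0.62 ± 0.13 (edgeR adjusted p = 0.0272) and Atf3, a stress-induced factor of the ATF family, at -0.68 ± 0.11 (edgeR adjusted p = 0.00534). Atf3 had 17 and 15.3 CPM in NFATc1/ΔS Th17 cells of day 3.5 and day 2.5, against 28 and 24 CPM in WT. Gpt2 had 13.8 and 10.5 CPM in NFATc1/ΔS, against 22.8 and 14.8 CPM in WT. Neither gene overlapped between the genotypes within Th17. By DESeq2, 2 of the 5 passed, Asns and Atf3, while Aldh1l2, Cth and Gpt2 did not. Without the WT library of Th17 day 3.5 only Aldh1l2 passed, with Atf3 at -0.64 (edgeR adjusted p = 0.051), Asns at -0.58 (0.0749), Cth at -0.83 (0.126) and Gpt2 at -0.47 (0.395); without the NFATc1/ΔS library of that day Atf3 and Aldh1l2 passed, with Asns at -0.58 (0.0728), Cth at -0.83 (0.118) and Gpt2 at -0.47 (0.379). Among followed genes that did not pass in Th17, Atf4 had -0.22 ± 0.08, Psat1 -0.23 ± 0.10, Slc7a5 -0.25 ± 0.10 and Slc3a2 -0.21 ± 0.10. Ddit3 had -0.12 ± 0.10, Trib3 -0.21 ± 0.14, Chac1 -0.26 ± 0.22, Phgdh -0.08 ± 0.12 and Slc7a11 -1.65 ± 0.64. Other markers moved with genotype in this culture: the 5 Th17 markers summed to 88 and 84.5 CPM in NFATc1/ΔS, against 128 and 180 CPM in WT, and the 6 B cell markers, all detected, to 13.8 and 18.2 CPM, against 21.2 and 29.3 CPM. Their part in the result was not tested.

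Within Th2 none of the 36 passed by edgeR, against 0.932% of all genes, and the median was -0.17. DESeq2 called 0, and 9 had an unadjusted p under 0.05, against 1343 of all 13086 genes. The 3 of smallest unadjusted p were Cth at -0.52 ± 0.15 (edgeR adjusted p = 0.161), Slc7a5 at -0.35 ± 0.10 (edgeR adjusted p = 0.174) and Asns at -0.37 ± 0.11 (edgeR adjusted p = 0.201). The Asns value turned on the libraries of day 2.5: without the WT library of Th2 day 2.5 it had -0.61 (edgeR adjusted p = 0.0139), and without its NFATc1/ΔS partner -0.61 (edgeR adjusted p = 0.0151). Atf4 had -0.22 ± 0.08, Psat1 -0.19 ± 0.10, Slc3a2 -0.21 ± 0.10, Ddit3 -0.14 ± 0.10, Trib3 -0.15 ± 0.14, Chac1 -0.30 ± 0.21, Phgdh 0.02 ± 0.12 and Slc7a11 -0.27 ± 0.69. The test of the difference between the cultures, Th17 minus Th2, called none of the 36 by edgeR, against 0.298% of all genes. DESeq2 called 0, and 4 had an unadjusted p under 0.05, against 808 of all 13086 genes. Atf3 was the nearest, at -0.75 ± 0.15 (edgeR adjusted p = 0.0522). Its Th2 values were 67.7 and 57.3 CPM in NFATc1/ΔS cells, against 59.1 and 60.2 CPM in WT, so the genotypes overlapped there. It passed with RLE size factors (edgeR adjusted p = 0.0468) and with unique reads (0.0164), and without any 1 of the 4 libraries of day 2.5 (0.00656 to 0.0369). Aldh1l2 had -1.04 ± 0.34 (edgeR adjusted p = 0.459) and Gpt2 -0.47 ± 0.18 (edgeR adjusted p = 0.64). Asns had -0.25 ± 0.15 and Slc7a11 -1.39 ± 0.96, and the other followed genes lay between -0.10 and 0.10.

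With the Th1 pairs added, none of the 36 passed over all 6 pairs (edgeR; 15 at an unadjusted p under 0.05, DESeq2 called 1, Asns; of all 13503 genes 0% passed, 773 had an unadjusted p under 0.05 and DESeq2 called 22). The 3 of smallest unadjusted p were Asns at -0.51 ± 0.10 (edgeR adjusted p = 0.6), Gpt2 at -0.50 ± 0.13 (edgeR adjusted p = 0.795) and Mthfd2 at -0.23 ± 0.07 (edgeR adjusted p = 0.825). Without the Th1 pair of day 2.5 Asns passed, at -0.45 (edgeR adjusted p = 0.0422). The followed genes Psat1 (-0.18 ± 0.07), Slc7a5 (-0.22 ± 0.08), Slc3a2 (-0.26 ± 0.08), Atf4 (-0.12 ± 0.07), Ddit3 (-0.37 ± 0.22), Trib3 (-0.37 ± 0.23), Chac1 (-0.38 ± 0.21), Slc7a11 (-0.86 ± 0.35) and Phgdh (0.01 ± 0.11) did not pass.

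The Th1 pair of day 2.5 spread the genes widely. Asns had 83.8 CPM in NFATc1/ΔS Th1 cells at day 3.5 and 64.2 at day 2.5, against 103 and 115 CPM in WT, so both pairs had the lower value in NFATc1/ΔS. In the NFATc1/ΔS library of day 2.5 several regulators stood far below the other 3 Th1 libraries. Ddit3 had 8.5 CPM there and 30.5 to 34.5 CPM in the others, Trib3 7.33 and 21.7 to 24.7 CPM, and Vldlr, a lipoprotein receptor gene, 3.73 and 39.2 to 64.5 CPM. Ddit4 had 62.3 CPM there and 248 to 477 CPM in the others, and Aldh1l2 had 0.131 CPM, from 2 reads, and 3.47 to 3.83 CPM in the others. The tryptophan tRNA synthetase gene Wars stood above them, with 133 CPM there and 52.6 to 69.9 CPM in the others. Within this pair the log2 differences ran from -3.23 (Vldlr) to 0.92 (Wars). In the Th1 pair of day 3.5 they ran from -0.50 (Gpt2) to 0.33 (Vldlr), with 28 of 36 below 0. These are single pairs of libraries, with no replicate check.

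Between the cultures, with genotype and day as blocks and 4 libraries a culture, 6 of the 36 genes passed as higher in Th1 than in Th2 and 3 as lower, against 14.3% higher and 13.8% lower of all genes. Of the higher genes, 3 were of transport (Slc7a5, Slc7a11 and Slc7a1, a transporter of arginine and lysine), 2 of synthesis (Asns and Aldh18a1) and 1 of one-carbon metabolism (Mthfd2). The 3 lower ones, Atf3, Cebpb and Sesn2, were all regulators. Cebpb encodes C/EBPβ, a factor of the family that pairs with ATF4.

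Atf3 averaged 22.7 ± 3.55 CPM in Th1 and 61.1 ± 4.57 CPM in Th2 libraries (SD, n = 4 each), and 21.1 ± 5.94 CPM in Th17. The lowest Th2 library, at 57.3 CPM, lay above the highest Th1 library (26.4) and the highest Th17 library (28). It was lower in Th1 than Th2 at a log2 fold change of -1.44 ± 0.19 (edgeR adjusted p = 0.000886), and higher in Th2 than in Th17 at 1.56 ± 0.19 (edgeR adjusted p = 0.00114). Cebpb averaged 8.57 ± 2.51 CPM in Th1, 22.4 ± 3.75 CPM in Th2 and 6.94 ± 0.705 CPM in Th17 (SD, n = 4 each). Again no Th2 library overlapped the other cultures, with -1.39 ± 0.22 for Th1 against Th2 (edgeR adjusted p = 0.00262) and 1.69 ± 0.22 for Th2 against Th17 (edgeR adjusted p = 0.00196). Cebpb overlaps Tmem189 on the opposite strand and 69.9% of its reads mapped uniquely. Both genes passed in every alternative tried. Sesn2 averaged 33.1 ± 4.86 CPM in Th1 and 57.3 ± 9.51 CPM in Th2 (SD, n = 4 each), with -0.77 ± 0.15 (edgeR adjusted p = 0.00715).

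Mthfd2 averaged 189 ± 35.7 CPM in Th1 and 108 ± 19.1 CPM in Th2 (SD, n = 4 each), with 0.82 ± 0.16 (edgeR adjusted p = 0.00625), and passed without any 1 library. Slc7a5 averaged 340 ± 127 CPM in Th1 and 152 ± 27.6 CPM in Th2 (SD, n = 4 each), with 1.16 ± 0.28 (edgeR adjusted p = 0.0162). The Th1 values split by day, with 220 and 240 CPM at day 3.5 and 448 and 451 CPM at day 2.5, and all exceeded the highest Th2 library (192). Asns had 0.63 ± 0.15 (edgeR adjusted p = 0.0157) and its cultures overlapped, with 64.2 to 115 CPM in Th1 and 50.9 to 78.2 CPM in Th2. Aldh18a1 had 0.47 ± 0.14 (edgeR adjusted p = 0.0341), Slc7a1 0.36 ± 0.12 (edgeR adjusted p = 0.0492) and Slc7a11 1.46 ± 0.47 (edgeR adjusted p = 0.045). Single libraries decide several of these: Aldh18a1 kept passing without 2 of the 8 libraries in turn, Slc7a11 without 2 and Slc7a1 without 1. Without the Th1 WT library of day 2.5, Slc7a5 had 0.95 (edgeR adjusted p = 0.0538) and Asns still passed. Asns did not pass without the Th2 WT library of day 2.5 (0.50, edgeR adjusted p = 0.0761), of day 3.5 (0.0643) or the Th2 NFATc1/ΔS library of day 3.5 (0.058). Of the followed genes that did not pass, Phgdh had 0.92 ± 0.33, Slc3a2 0.39 ± 0.14, Psat1 0.25 ± 0.10, Atf4 0.19 ± 0.15, Trib3 -0.17 ± 0.34, Chac1 -0.24 ± 0.25 and Ddit3 -0.49 ± 0.40. Beside these differences, the 6 B cell markers summed to 3.99 to 8.31 CPM in Th1 and 30.8 to 42.8 CPM in Th2, with Ms4a1 at 0 in both Th1 WT libraries; their part was not tested.

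Against Th17, Th1 showed none of the 36 past the threshold by edgeR, where 4.66% of all genes passed. At an unadjusted p under 0.05 stood 6 of the 36, against 3291 of all 13503 genes. DESeq2 called 1 of the 36, Asns, against 12.5% of all genes. The 3 of smallest unadjusted p were Asns at 0.61 ± 0.15 (edgeR adjusted p = 0.0552), Psat1 at 0.26 ± 0.10 (edgeR adjusted p = 0.14) and Slc7a5 at 0.74 ± 0.28 (edgeR adjusted p = 0.15). Slc3a2 had 0.29 ± 0.14, Slc7a11 1.10 ± 0.45, Phgdh 0.36 ± 0.33, Chac1 0.25 ± 0.25, Trib3 0.03 ± 0.34, Atf4 -0.04 ± 0.15 and Ddit3 -0.40 ± 0.41. Between Th2 and Th17, Atf3 and Cebpb were the 2 genes that passed, both higher in Th2, against 6.37% higher and 5.44% lower of all genes. Sesn2 was next at 0.46 ± 0.15 (edgeR adjusted p = 0.0906). Asns (-0.02 ± 0.15), Psat1 (0.01 ± 0.10), Slc3a2 (-0.10 ± 0.14), Atf4 (-0.23 ± 0.15), Ddit3 (0.09 ± 0.40), Trib3 (0.20 ± 0.33), Chac1 (0.48 ± 0.25), Phgdh (-0.56 ± 0.32), Slc7a11 (-0.35 ± 0.49) and Slc7a5 (-0.42 ± 0.28) did not pass. Fitted without the Th1 libraries, 40.4% of all genes passed (5288) and 18 of the 36. Then 10 were higher in Th2, among them Cth at 0.83 (edgeR adjusted p = 0.000435), Ddit4 at 0.53 (edgeR adjusted p = 0.000456) and Vldlr at 0.46 (edgeR adjusted p = 0.00105), and 8 were lower in Th2, among them Phgdh at -0.56 (edgeR adjusted p = 6.44e-05), Mthfd2 at -0.41 (edgeR adjusted p = 0.000497) and Slc7a5 at -0.40 (edgeR adjusted p = 0.00341).

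With time in culture, most of the regulators that changed in Th17 were lower and most of the metabolic genes that changed were higher. At day 3.5, 13 of the 36 were higher and 7 lower than at day 2.5 (2 pairs), against 16.1% higher and 16.2% lower of all genes. The higher ones were 4 synthesis enzymes, 2 one-carbon enzymes, Slc7a5, 5 tRNA synthetases and Sesn2, and the lower ones 6 of the 11 regulators and Aldh1l2. In Th2, 6 were higher and 5 lower, against 13.5% and 14.6% of all genes. Of the 8 synthesis enzymes, Phgdh, Psph and Gpt2 were higher in Th2 at day 3.5 and none was lower in either culture. Beside these changes, the 4 erythroid markers summed to 0.422 to 1.26 CPM at day 3.5 in these cultures, against 3.59 to 13.1 CPM at day 2.5. In Th17 the 6 B cell markers summed to 13.8 and 21.2 CPM in NFATc1/ΔS and WT cells at day 3.5, against 18.2 and 29.3 CPM at day 2.5, and 3 of the 5 tested were lower. The 4 CD8 T and NK markers summed to 27.9 and 33.4 CPM in Th17 at day 3.5, against 38.4 and 47.7 CPM at day 2.5; both that were tested were lower there and 1 of them in Th2. In Th2, 2 of the 3 T cell markers were lower and all 4 Th2 markers higher, and in Th17 2 of those 4 were higher. Their part in the day effect was not tested.

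Ddit4 had 217 and 244 CPM in Th17 NFATc1/ΔS and WT cells at day 3.5, against 537 and 480 CPM at day 2.5, with -1.14 ± 0.12 (edgeR adjusted p = 6.58e-05). In Th2 it had 301 and 422 CPM at day 3.5, against 671 and 695 CPM at day 2.5, with -0.94 ± 0.12 (edgeR adjusted p = 0.000257). Vldlr had 35.4 and 38.8 CPM in Th17 at day 3.5, against 60.1 and 64.3 CPM at day 2.5 (-0.75 ± 0.09, edgeR adjusted p = 7.25e-05), and in Th2 it had -1.03 ± 0.09 (edgeR adjusted p = 5.92e-06). Days did not overlap for either gene in either culture. Ddit3 had 23.2 and 23.3 CPM in Th17 at day 3.5, against 42.7 and 49.9 CPM at day 2.5 (-0.99 ± 0.11, edgeR adjusted p = 2.49e-05). In Th2 it had 33.1 and 34 CPM at day 3.5, against 36.6 and 43.3 CPM at day 2.5, a difference that did not pass (-0.25 ± 0.10, edgeR adjusted p = 0.0925). The difference between the cultures passed for Ddit3 alone of the 36 (-0.74 ± 0.15, edgeR adjusted p = 0.0238), with 0.573% of all genes higher and 0.917% lower in that test. It did not pass without either library of Th17 WT (-0.65, edgeR adjusted p = 0.0674 and 0.0767) or of Th2 NFATc1/ΔS (-0.64, 0.0957 and 0.0851), nor with DESeq2 (-0.75, adjusted p = 0.228). Ddit3 and Mars, the methionine tRNA synthetase gene, overlap on opposite strands.

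Nupr1 had 0.516 and 1.61 CPM in Th17 NFATc1/ΔS and WT cells at day 3.5, against 2.02 and 4.88 CPM at day 2.5, with -1.73 ± 0.36 (edgeR adjusted p = 0.00259). Aldh1l2 had -0.96 ± 0.24 in Th17 (edgeR adjusted p = 0.00733) and had -1.18 ± 0.24 in Th2 (edgeR adjusted p = 0.00269). Trib3 had -0.47 ± 0.14 in Th17 (edgeR adjusted p = 0.023) and -0.43 ± 0.14 in Th2 (edgeR adjusted p = 0.0363); the Th2 value was -0.14 without either NFATc1/ΔS library (edgeR adjusted p = 0.682 and 0.68). Atf4 had -0.26 ± 0.08 in Th17 (edgeR adjusted p = 0.0242) and 0.16 ± 0.08 in Th2 (edgeR adjusted p = 0.144). Among the tRNA synthetases, Sars, which charges serine, was the one that was lower at day 3.5, in Th2 at -0.39 ± 0.09 (edgeR adjusted p = 0.00503).

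Wars had 69.1 and 77.7 CPM in Th17 NFATc1/ΔS and WT cells at day 3.5, against 41.8 and 42.1 CPM at day 2.5, the largest rise among the 36 in Th17 (0.81 ± 0.10, edgeR adjusted p = 8.33e-05). Asns had 0.62 ± 0.11 (edgeR adjusted p = 0.00106), Phgdh 0.59 ± 0.12 (edgeR adjusted p = 0.00511), Aars 0.53 ± 0.09 (edgeR adjusted p = 0.000669), Slc7a5 0.52 ± 0.10 (edgeR adjusted p = 0.00177) and Gpt2 0.52 ± 0.13 (edgeR adjusted p = 0.00839). The other higher genes in Th17 were Shmt2, Mars, Tars, Psph, Nars, Mthfd2 and Sesn2, between 0.31 and 0.50. In Th2, Phgdh had 0.55 ± 0.12 (edgeR adjusted p = 0.0096), Gpt2 0.51 ± 0.13 (edgeR adjusted p = 0.00883) and Sesn2 0.40 ± 0.09 (edgeR adjusted p = 0.00453). Aars had 0.36 ± 0.09 (edgeR adjusted p = 0.00948), Psph 0.36 ± 0.10 (edgeR adjusted p = 0.0156) and Wars 0.32 ± 0.11 (edgeR adjusted p = 0.0381). The rises leaned on the WT pairs: in Th2 none of these 6 passed without the WT library of day 2.5 or that of day 3.5, where their values were 0.13 to 0.40. In both cultures a smaller share of all genes passed as well when either WT library was left out. In Th17 fewer of the 36 passed then, while Ddit3, Ddit4, Vldlr, Asns, Slc7a5, Aars and Wars passed in every alternative. The followed genes that did not pass were Psat1 (0.17 ± 0.10 in Th17 and 0.07 ± 0.10 in Th2), Slc3a2 (-0.03 ± 0.10 and -0.14 ± 0.10), Chac1 (0.24 ± 0.22 and 0.52 ± 0.21) and Slc7a11 (-0.53 ± 0.62 and -0.12 ± 0.69), and in Th2 alone Asns (0.27 ± 0.11) and Slc7a5 (0.17 ± 0.10).

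**Figure D4:**
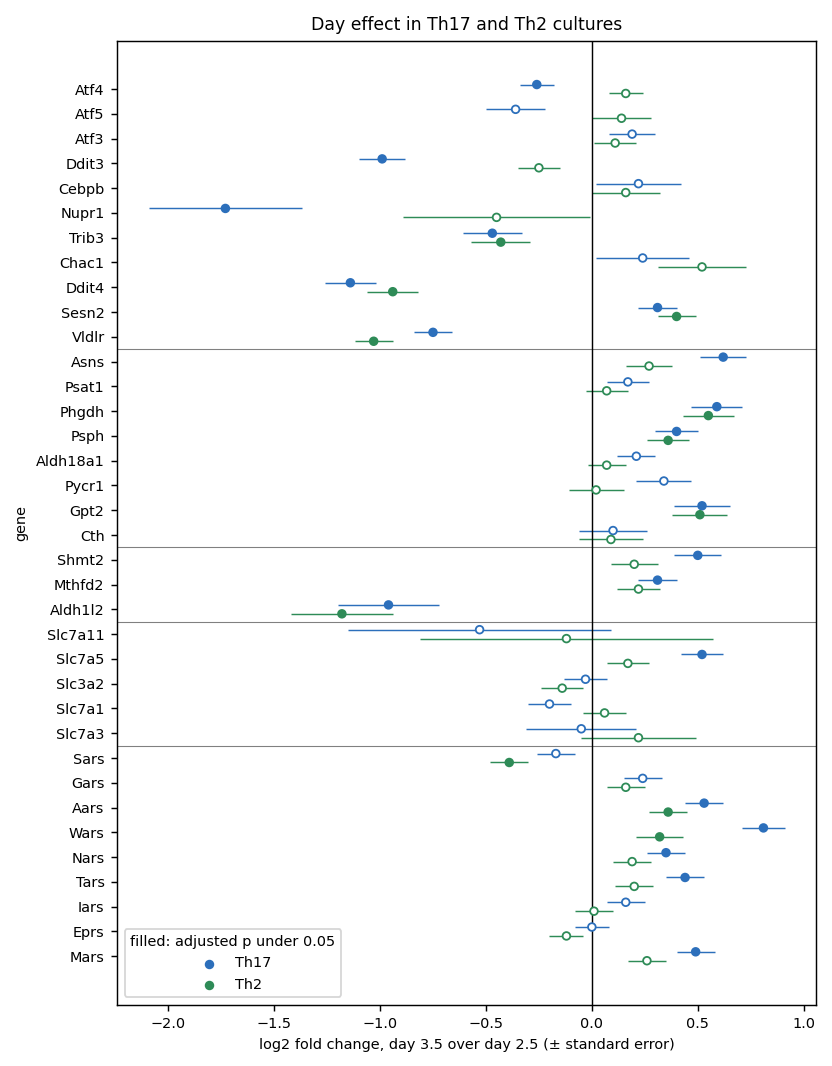
Log2 fold change, day 3.5 over day 2.5, of each of the 36 genes in Th17 (blue) and Th2 (green) cultures, with standard errors as bars and filled points for adjusted p under 0.05. Ddit4, Vldlr, Trib3 and Aldh1l2 are filled and left of 0 in both cultures, and Phgdh, Psph, Gpt2, Sesn2, Aars and Wars are filled and right of 0 in both.

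Within each pair of days, the median over the 36 genes was 0.00 in Th2 NFATc1/ΔS and 0.26 in Th2 WT, and 0.10 in Th17 NFATc1/ΔS and 0.27 in Th17 WT. It was -0.20 in Th1 NFATc1/ΔS and -0.24 in Th1 WT. These 6 pairs share their libraries with the genotype pairs, so they repeat the same values in another arrangement. Over all 6 pairs of days none of the 36 passed (edgeR; 2 at an unadjusted p under 0.05, DESeq2 called 0; of all genes 0% passed, 1458 had an unadjusted p under 0.05 and DESeq2 called 147). The 3 of smallest unadjusted p were Gpt2 at 0.40 ± 0.12 (edgeR adjusted p = 0.343), Asns at 0.33 ± 0.13 (edgeR adjusted p = 0.428) and Slc3a2 at -0.24 ± 0.12 (edgeR adjusted p = 0.515). With the Th1 libraries left out, an alternative chosen after seeing the data, 38.6% of all genes passed (5054) and 21 of the 36, 14 higher and 7 lower.

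For 12 of the 36 genes the day effect in Th1 differed from that in the other cultures. Phgdh had 169 and 205 CPM in Th1 NFATc1/ΔS and WT cells at day 3.5, against 441 and 324 CPM at day 2.5. Slc7a5 had 220 and 240 CPM at day 3.5, against 448 and 451 CPM at day 2.5. Ddit4 had 437 and 477 CPM at day 3.5, against 62.3 and 248 CPM at day 2.5. Tested as the day effect in Th1 minus its mean in Th2 and Th17, a comparison added after seeing the data, 2 of the 36 passed as higher and 10 as lower, against 8.86% and 8.36% of all genes. The higher ones were Ddit4 at 2.90 ± 0.51 (edgeR adjusted p = 0.0186) and Nupr1 at 2.66 ± 0.59 (edgeR adjusted p = 0.0318). Of the lower ones, Phgdh had -1.60 ± 0.26 (edgeR adjusted p = 0.0159), Wars -1.40 ± 0.30 (edgeR adjusted p = 0.0289), Slc7a5 -1.32 ± 0.17 (edgeR adjusted p = 0.00876), Mars -1.0 ± 0.19 (edgeR adjusted p = 0.0217), Tars -0.97 ± 0.21 (edgeR adjusted p = 0.0317) and Shmt2 -0.94 ± 0.20 (edgeR adjusted p = 0.0284). Aars, Psph, Nars and Mthfd2 lay between -0.83 and -0.70. Single libraries decide these calls: with any 1 Th2 or Th17 library left out the count came to 0 or 1 (1.23% to 2.06% of all genes), and with any 1 Th1 library left out to between 21 and 27 (26.5% to 50.6% of all genes). Ddit3 (1.63 ± 0.46, edgeR adjusted p = 0.0542) and Atf4 (-0.46 ± 0.14, edgeR adjusted p = 0.0614) were nearest to passing among the followed genes. Trib3 had 1.16 ± 0.50, Slc7a11 0.69 ± 0.69, Slc3a2 -0.47 ± 0.19, Asns -0.33 ± 0.22, Psat1 -0.25 ± 0.17 and Chac1 0.01 ± 0.48. With 1 library of each genotype at each day of Th1, and the NFATc1/ΔS library of day 2.5 correlating with the other 11 at 0.896 to 0.96, the day and these libraries cannot be told apart.

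Genes of the same pathways outside the set were counted from 7 lists. In the genotype comparison of Th2 and Th17 pairs, 1 of 14 other amino acid transporters passed, Slc16a10, a carrier of aromatic amino acids, at -0.42 ± 0.09 (edgeR adjusted p = 0.0188). None passed of 8 eIF2 kinases, phosphatases and partners, 11 other cytosolic and 16 mitochondrial tRNA synthetases, 11 other one-carbon enzymes, 17 measured of 18 other amino acid enzymes, and 10 genes of mTORC1 and the sestrins. Their medians lay between -0.10 and 0.07. Over all genes, 1.28% were lower and 0.68% higher in this comparison. At day 3.5 over 3 pairs none of the 7 lists had a member that passed, and the 11 other cytosolic tRNA synthetases all had negative values, with a median of -0.12, against -0.18 for the 9 in the set.

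By culture, 3 of the 16 mitochondrial tRNA synthetases were higher in Th1 than in Th2 and 1 lower, 5 of the 17 measured amino acid enzymes higher and 2 lower, and 2 of the 14 transporters higher and 4 lower. Of the one-carbon enzymes 2 were higher and none lower, and of the cytosolic synthetases 1 higher and none lower. Of the eIF2 and mTORC1 lists 1 each was lower and none higher. Over all genes, 14.3% were higher in Th1 than in Th2 and 13.8% lower. Ppp1r15a, which guides the phosphatase that reverses eIF2 phosphorylation, had a lower level in Th1 than Th2, with -1.06 ± 0.13 (edgeR adjusted p = 0.000664), and a higher one in Th2 than Th17, with 0.50 ± 0.13 (edgeR adjusted p = 0.0344), in the same directions as Atf3 and Cebpb. Slc7a2, an arginine transporter gene, had 20.5 and 3.33 CPM in NFATc1/ΔS and 27.6 and 2.98 CPM in WT Th2 cells at day 3.5 and day 2.5, and at most 0.131 CPM in any Th1 or Th17 library. Its day effect in Th2 was 2.91 ± 0.20 (edgeR adjusted p = 1.07e-06). Of the other transporters, Slc1a4, a carrier of neutral amino acids, was higher in Th1 than Th2, with 1.24 ± 0.15 (edgeR adjusted p = 0.000582), and Slc7a8 was lower, with -2.94 ± 0.64 (edgeR adjusted p = 0.01). Of the amino acid enzymes, Gclm, a subunit of the enzyme that starts glutathione synthesis, was higher in Th1 than Th2, with 1.41 ± 0.14 (edgeR adjusted p = 0.000306). Cbs, which makes cystathionine, was lower at -1.22 ± 0.25 (edgeR adjusted p = 0.00754), and Got1, the cytosolic aspartate aminotransferase, at -0.66 ± 0.10 (edgeR adjusted p = 0.00174). Levels were low for Cbs, with 0.505 to 1.11 CPM in Th1 and 1.25 to 2.3 CPM in Th2. They were low for Slc7a8 too, with 0.112 to 0.916 CPM in Th1 and 1.6 to 4.46 CPM in Th2. The mitochondrial synthetase gene Ears2 (1.04 ± 0.28, edgeR adjusted p = 0.0253) was higher in Th1 than in Th2 and Tars2 lower (-0.50 ± 0.14, edgeR adjusted p = 0.0335).

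With day in Th17, 5 of 11 other one-carbon enzymes were higher and 1 lower, 7 of 16 mitochondrial tRNA synthetases higher and 2 lower, and 3 of 11 other cytosolic synthetases higher and none lower. Of the 14 other transporters 2 were higher and 3 lower, of the 17 measured amino acid enzymes 1 higher and 4 lower, of the 8 genes of the eIF2 list 3 higher and 2 lower, and of the 10 genes of mTORC1 and the sestrins 2 higher and 1 lower. Over all genes, 16.1% were higher and 16.2% lower with day in Th17. Shmt1, the cytosolic partner of Shmt2, had 0.85 ± 0.13 (edgeR adjusted p = 0.000287), and Lars, which charges leucine, 0.71 ± 0.09 (edgeR adjusted p = 0.000109). Slc1a5, a glutamine carrier, had 0.85 ± 0.09 (edgeR adjusted p = 3.41e-05), whereas Slc16a10 was lower at -0.74 ± 0.12 (edgeR adjusted p = 0.000488). Odc1, which starts polyamine synthesis, was lower at -0.52 ± 0.09 (edgeR adjusted p = 0.000633) and Got1 at -0.50 ± 0.08 (edgeR adjusted p = 0.000515). Of the eIF2 list, Eif2ak3, the kinase PERK, was lower at -0.69 ± 0.12 (edgeR adjusted p = 0.00162) and Ppp1r15a at -0.68 ± 0.12 (edgeR adjusted p = 0.00199), while Eif2ak2, the kinase PKR, was higher at 0.70 ± 0.14 (edgeR adjusted p = 0.0024). In Th2, 2 of the mitochondrial synthetases were higher and 2 lower, 2 of the cytosolic ones higher and 1 lower, 3 of the transporters higher and 1 lower, 1 of the amino acid enzymes higher and 2 lower, and 1 of the mTORC1 list higher and 4 lower. There, 5 of the 11 one-carbon enzymes were higher and 1 lower, with Shmt1 at 0.81 ± 0.13 (edgeR adjusted p = 0.000775), and Eif2ak2 was the 1 gene of the eIF2 list that passed, at 0.96 ± 0.15 (edgeR adjusted p = 0.000429). Over all genes, 13.5% were higher and 14.6% lower with day in Th2. Sesn3, a relative of Sesn2, was lower at day 3.5 in Th2 (-0.58 ± 0.08, edgeR adjusted p = 0.000241) and in Th17 (-0.35 ± 0.08, edgeR adjusted p = 0.00487), where Sesn2 was higher.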

How the data were processed

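Poly(A) RNA of 12 libraries was analysed from the read counts per gene that the authors deposited for each sample, 41457 genes in each table, with a second count column of uniquely mapped reads, per the file headers. The build is GRCm38, per the submitters' processing notes; the aligner and counting program, and the use of strand in counting, were not given in the sources used here. The deposited TPM values were not used. The test was edgeR 4.0.16, run in R 4.3.3 (scaling by TMM, filterByExpr with a minimum count of 10 and a minimum total of 15, robust quasi-likelihood fit, Benjamini-Hochberg adjustment over all genes tested, threshold 0.05). A standard error is the log2 fold change over the root of its F statistic. CPM are counts over TMM-scaled library sizes, and 0.5 was added before log2 within pairs. Genotype effects had the pair of culture and day as a block, and day effects the pair of culture and genotype. Cultures were compared with genotype and day as blocks. Within 1 culture the 8 Th2 and Th17 libraries shared one estimate of the spread.

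The alternatives were RLE size factors, no read filter, DESeq2 1.42.0, unique reads, no blocks, and leaving out each library or pair. The labels give no shared replicate numbers beyond 1 library for each group. The members are set by gene name alone; they and the gene lists were chosen with earlier results of these data known. The genotype comparisons by day and the day effect of Th1 against the other cultures were added after seeing the data. Values are given for up to 6 called members each way of largest fold, for the 3 of smallest unadjusted p where fewer than 3 were called, and in every comparison for Asns, Atf4, Ddit3, Trib3, Chac1, Psat1, Phgdh, Slc7a11, Slc7a5 and Slc3a2. With 13417121 to 17774400 reads per library, a gene of few reads has a wide error. A few genes of the other lists are not reported here.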

Additional observations from a re-analysis of the deposited data

Results flagged for a closer look

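Each gene's 4 libraries of a culture were searched for 1 library apart from the other 3 (Dixon's test). This marked 5 of 108 groups, and chance marks about 1 in 20 where the libraries of a group are alike. Here they differ in genotype and day, so genotype, day and a stray library cannot be told apart. In Th1, Ddit3 at 8.5 CPM, Trib3 at 7.33 CPM and Aldh1l2 at 0.131 CPM stood apart, each in the NFATc1/ΔS library of day 2.5. In Th2, Atf5, a factor of the ATF family, stood apart at 16.9 CPM and Gars, which charges glycine, at 271 CPM, both in the WT library of day 3.5. Atf5, with 2631 reads in all libraries, overlaps Nup62 on the opposite strand, which had 23427.

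The day effect differed between cultures by a test of the difference itself. Ddit3 had -0.74 for Th17 minus Th2. For Th1 minus the mean of Th2 and Th17, Nupr1 had 2.66 and Ddit4 2.90, while Phgdh had -1.60, Psph -0.75, Shmt2 -0.94, Mthfd2 -0.70, Slc7a5 -1.32, Aars -0.83, Wars -1.40, Nars -0.73, Tars -0.97 and Mars -1.0. All are log2 differences of fold changes of day 3.5 over day 2.5.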

How the results depend on the processing

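Across all alternatives run, no member called in a comparison changed sign. The counts of members that passed moved as follows, with the share of all genes that passed where it moved most, and the cause was not tested unless stated. For genotype in the Th2 and Th17 pairs (5; 1.96% of all genes), no read filter gave 10 (2.67%), DESeq2 3 (1.58%), leaving out 1 pair 1 to 3 (1.01% to 1.9%), and a fit without the pair as a block 0 (0.00805%), in which culture and day differences enter the spread. Over all pairs (0), DESeq2 gave 1 and leaving out 1 pair 0 to 1. Within Th2 (0, with 0.932% of all genes), no filter gave 3 (1.51%), and Asns ranged from -0.61 to -0.12 over the alternatives. Within Th17 (5, with 1.72% of all genes), DESeq2 gave 2 (0.672%). With 1 Th17 library left out, no more members and a smaller share of all genes passed. For Th17 minus Th2 (0), RLE factors, no filter and unique reads gave 1 each, and leaving out 1 library 0 to 1. At day 3.5 (0; 1 gene of all), no filter gave 9 (302 genes of all), DESeq2 7 (49), unique reads 1 (23) and leaving out 1 pair 0 to 11, the last without the Th1 pair (507). At day 2.5 (0, with 1.47% of all genes), no filter gave 3 (2.07%) and unique reads 2 (2.5%). Leaving out 1 library of day 3.5 gave 2 or 3 (3.31% to 3.92%), and leaving out 1 of day 2.5 left 1 pair of that day.

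For Th1 against Th2 (9, with 28.1% of all genes), leaving out 1 library gave 4 to 14 (15.3% to 31.9%). For Th1 against Th17 (0), DESeq2 gave 1 and leaving out 1 library 0 to 1. For Th2 against Th17 (2), the 8 libraries alone gave 18 (40.4% of all genes). For day in all pairs (0), the 8 Th2 and Th17 libraries alone gave 21 (38.6% of all genes). For day in Th2 (11, with 28.1% of all genes), DESeq2 gave 5 (16%), and for day in Th17 (20, with 32.4%) it gave 13 (20.3%). With 1 library of the culture left out, neither count rose, and the share of all genes fell for both day effects. For the difference of these (1), no filter gave 3, DESeq2 0 and leaving out 1 library 0 to 2. For Th1 minus the other cultures (12), leaving out 1 library gave 0 to 27. Where a library was left out, the lone partner was assumed to vary like the other groups. With 1 library for each group, depth limits the low genes most: Slc7a11 had 135 reads in all.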
